A study of Mus musculus with 2 samples.

Results

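Expression of 34 cell cycle genes was compared between the cell types of mouse skin. The genes were taken from a list of replication and division genes, and all 34 were present among the 32285 genes of the count matrix. They were 10 S-phase genes (Mcm2 to Mcm7, Pcna, Tyms, Rrm1 and Rrm2), 22 mitotic genes (Mki67, Top2a, Cenpf, Cenpe, Cenpa, Birc5, Ccnb1, Ccnb2, Ccna2, Cdk1, Aurka, Aurkb, Bub1, Bub1b, Ube2c, Tpx2, Nusap1, Prc1, Kif11, Kif23, Plk1 and Cdc20), and Hmgb2 and Stmn1, which were counted in neither phase. The skin came from C57BL/6 mice 8 weeks of age and was digested for about an hour with Liberase and DNAse. Control mice and mice given the anti-Ly6G antibody clone 1A8 on 2 successive days at steady state, which removes neutrophils, were marked with hashtag antibodies and pooled into 1 RNA library. The number of animals is not given in the labels. Here no barcode was traced to a control or a depleted mouse, so every value below describes the pool of both. With 1 library there is no replicate error. Intervals are 95% and cover counting error only, and no p-value is given.

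A barcode is the tag of 1 droplet, normally 1 cell, and a UMI is the tag of 1 captured RNA molecule. Of 8367 barcodes, 8127 had at least 200 detected genes and at most 20% mitochondrial UMIs, with a median of 9708 UMIs. Each was placed in a class where it carried 3 or more marker genes of 1 cell type at a set minimum level, none of which is a cell cycle gene. In this way 6692 barcodes entered a class, 332 passed the gates of unrelated lineages and are called mixed, and 1103 passed no gate. The names below, such as macrophage-like, mean only that. Every marker of a class was at least 2-fold above the other gated barcodes in 12 of the 13 classes with 20 or more barcodes, and 9 of 11 were in the hair follicle class. The gates used these same markers, so this follows largely from the gates and does not test the names.

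A dividing cell copies its DNA in S phase and separates the copies in mitosis. The Mcm2 to Mcm7 proteins form the helicase that opens DNA, Pcna is the sliding clamp of the polymerases, and Tyms, Rrm1 and Rrm2 make nucleotides. Late genes are switched on afterwards: Ccna2, Ccnb1, Ccnb2 and Cdk1 are the cyclins and kinase that drive entry into mitosis, the Cenp, Bub, Aurk and Kif genes build and check the spindle attachments, and Cdc20 and Ube2c serve the complex that ends mitosis. In skin, the basal layer of the epidermis is known as the site of keratinocyte division, suprabasal keratinocytes have left the cycle, and some tissue macrophages renew themselves locally.

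The classical view is that S-phase promoters carry E2F sites and mitotic promoters carry a CHR element, often beside a CCAAT box. The promoter sequences of the members are therefore described first, although expression results of these data were already known. RefSeq sequences (GRCm38.p6) from 250 bases before to 50 bases after the start matched 29 of the 34 members, as 31 promoters because Mcm7 and Prc1 have more than 1 start. No entry was used for Tpx2, Mcm4, Stmn1, Ccna2 and Aurkb. Both strands were searched for E2F-type letters (TTTGGCGC, TTTCCCGC, TTCCCGCC, TTTGCCGC or TTTCGCGC), for CHR letters (TTTGAA or TTCGAA) and for CCAAT. The following 5 promoters are shown up to 30 bases after the start as examples from both phases, with all motif matches in capitals. Mcm5 (chr8:75109259-75109538, plus strand) and Mcm6 (chr1:128359676-128359955, minus strand) are S-phase genes, Cdk1 (chr10:69352883-69353162, minus strand) was the mitotic gene with both kinds of motif, and Cenpf (chr1:189688057-189688336, minus strand) and Cdc20 (chr4:118437314-118437593, minus strand) are mitotic genes that stood out in keratinocytes.
Mcm5: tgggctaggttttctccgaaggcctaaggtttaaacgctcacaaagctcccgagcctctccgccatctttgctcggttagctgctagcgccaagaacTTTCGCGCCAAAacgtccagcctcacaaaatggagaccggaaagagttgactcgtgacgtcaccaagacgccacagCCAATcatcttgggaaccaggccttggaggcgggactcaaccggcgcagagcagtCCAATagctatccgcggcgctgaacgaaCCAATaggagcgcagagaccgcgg
Mcm6: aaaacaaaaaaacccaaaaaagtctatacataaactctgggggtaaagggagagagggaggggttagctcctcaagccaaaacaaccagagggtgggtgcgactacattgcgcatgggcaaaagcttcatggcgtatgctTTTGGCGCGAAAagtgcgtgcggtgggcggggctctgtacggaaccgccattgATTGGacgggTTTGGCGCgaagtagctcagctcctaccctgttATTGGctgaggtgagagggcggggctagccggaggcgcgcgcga
Cdk1: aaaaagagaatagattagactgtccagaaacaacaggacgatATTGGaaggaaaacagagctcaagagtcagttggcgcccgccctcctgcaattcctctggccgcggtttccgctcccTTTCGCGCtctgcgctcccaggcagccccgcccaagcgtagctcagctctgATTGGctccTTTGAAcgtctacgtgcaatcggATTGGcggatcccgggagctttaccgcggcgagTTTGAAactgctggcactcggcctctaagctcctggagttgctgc
Cenpf: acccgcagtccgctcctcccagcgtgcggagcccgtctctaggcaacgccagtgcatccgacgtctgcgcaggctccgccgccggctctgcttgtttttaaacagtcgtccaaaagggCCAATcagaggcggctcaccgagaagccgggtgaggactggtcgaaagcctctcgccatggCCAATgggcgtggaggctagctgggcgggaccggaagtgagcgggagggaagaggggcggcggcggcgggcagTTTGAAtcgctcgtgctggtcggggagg
Cdc20: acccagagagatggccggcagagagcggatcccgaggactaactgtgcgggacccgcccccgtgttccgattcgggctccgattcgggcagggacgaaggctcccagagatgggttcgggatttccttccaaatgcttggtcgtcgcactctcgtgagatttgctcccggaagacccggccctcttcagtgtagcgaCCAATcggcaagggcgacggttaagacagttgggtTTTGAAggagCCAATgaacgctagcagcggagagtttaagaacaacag

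In Mcm5 the E2F-type matches overlap and begin 153 and 149 bases before the start, and no CHR letters were found in this window. Mcm6 has overlapping E2F-type matches 110 and 106 bases before the start and another at 47. Cenpf carries its CHR letters from base 2 after the start, and Cdc20 from 18 bases before it. Cdk1 has an E2F-type match at 131 bases and CHR letters at 71 and 15 bases before the start.

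E2F-type letters were in 5 of 10 S-phase promoters (Mcm3, Mcm5, Mcm6, Mcm7 and Rrm1) and in 1 of 20 mitotic promoters, against 3.89% of all 32851 promoters of the table. CHR letters showed the opposite division, with 16 of 20 mitotic promoters and 2 of 10 S-phase promoters (Mcm2 and 1 of the Mcm7 promoters) against 19.2% of all. CCAAT was common to both groups, in 18 of 20 mitotic and 9 of 10 S-phase promoters against 37.4%. CHR and CCAAT were found together in the same 16 mitotic promoters, against 7.52% of all. In 14 mitotic genes a CHR match lay within 50 bases of the start. The share of all promoters with a match so placed was not counted, so this position is a description only. Birc5, Nusap1 and Tyms held none of these letters. A match is a description of the letters and not a measured binding site.

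**Figure D1:**
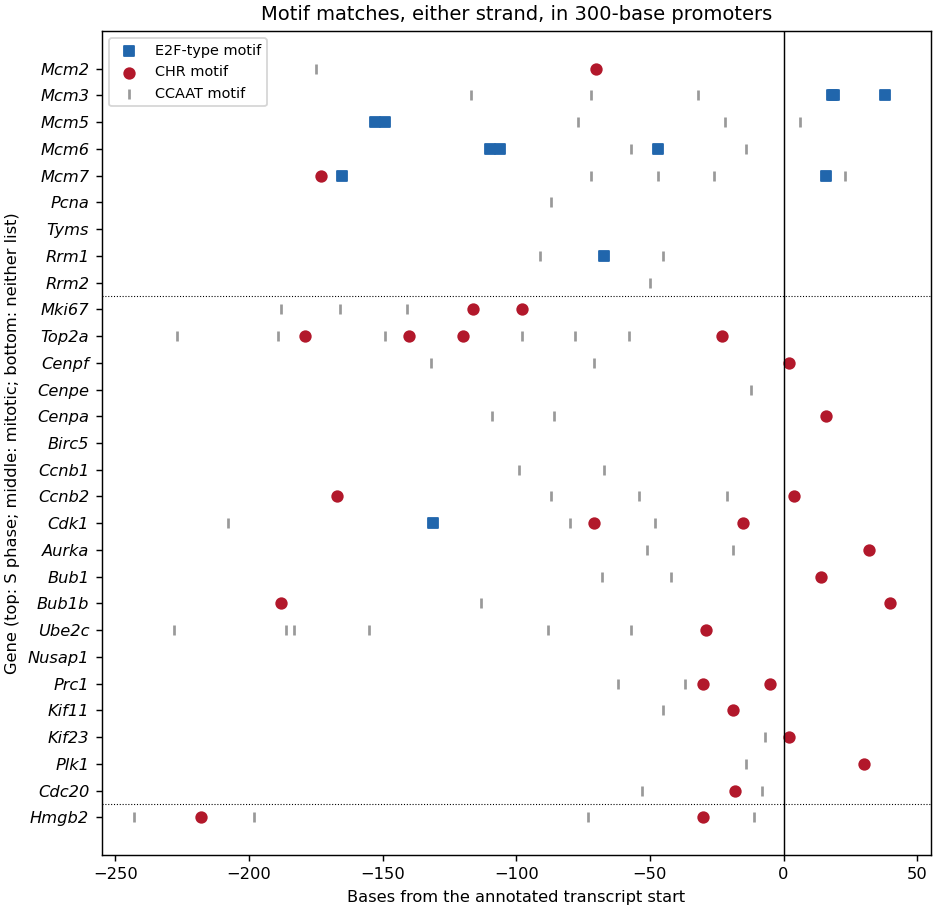
Positions of motif matches in the promoters of the members, with distance from the start site in bases on the horizontal axis and 1 row per gene (Mcm7 and Prc1 with both of their promoters), grouped into S-phase, mitotic and other genes. E2F-type matches are on the rows of 5 S-phase genes and Cdk1, and CHR matches are on 15 mitotic rows and those of Mcm2, Mcm7 and Hmgb2.

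The share of barcodes with several cell cycle genes was highest in macrophage-like and dendritic-like barcodes and low in fibroblast-like ones. It was intermediate in basal keratinocyte-like, NK-like, T cell-like and monocyte-like ones. After thinning, however, the wide NK-like interval overlapped those of the highest classes, and the T cell-like interval overlapped that of the dendritic-like class. Over all kept barcodes, 956 of 8127 (11.8%, 11.1 to 12.5) had 5 or more of the 34 genes. Because a barcode with more UMIs shows more genes, each barcode was also thinned at random to 2000 UMIs, which left 7707 barcodes, of which 302 (3.92%) had 5 or more. Thinned shares are the ones compared between classes below.

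Macrophage-like barcodes had 5 or more genes in 351 of 1167 cases (30.1%, 27.5 to 32.8), and after thinning in 151 of 1114 (13.6%, 11.6 to 15.7). Dendritic-like barcodes had a like share in a far smaller class, 23 of 73 (31.5%, 21.1 to 43.4), and 12 of 71 after thinning (16.9%, 9.05 to 27.7). The intervals of these classes overlap. Basal keratinocyte-like barcodes stood lower, at 167 of 803 (20.8%, 18 to 23.8) and 46 of 795 after thinning (5.79%, 4.27 to 7.64), and the thinned interval lies below that of the macrophage-like class.

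Among lymphoid and other myeloid classes the thinned shares were 5 of 73 NK-like barcodes (6.85%, 2.26 to 15.3), 6 of 124 T cell-like barcodes (4.84%, 1.80 to 10.2) and 7 of 193 monocyte-like barcodes (3.63%, 1.47 to 7.33). These 3 intervals overlap each other and that of the basal keratinocyte-like class, so no order among them can be read. Without thinning, the shares were 16.2% in NK-like, 11.4% in T cell-like and 13.8% in monocyte-like barcodes, whose median UMIs were 4919, 4367 and 7635. Group 2 innate lymphoid-like barcodes reached 5 genes in 4 of 48 cases, neutrophil-like barcodes in 1 of 27 and mast-like barcodes in 0 of 22, at a median of only 1686 UMIs. By the limit of 3 counts that 0 allows a share of up to 13.6%, and its exact interval reaches 15.4%.

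At the low end, 94 of 3568 fibroblast-like barcodes (2.63%, 2.13 to 3.21) had 5 or more genes, and only 7 of 3499 (0.20%, 0.0805 to 0.412) did after thinning. Suprabasal keratinocyte-like barcodes fell from 47 of 369 (12.7%) to 1 of 361 (0.277%, 0.00701 to 1.53) once thinned, at a median of 11981 UMIs. Their unthinned share therefore lay between those of basal keratinocyte-like and fibroblast-like barcodes, while the thinned share overlapped the fibroblast-like interval. Hair follicle-like barcodes went from 4 of 85 to 0 of 81. Skeletal muscle fibre-like barcodes, which come from cells that no longer divide and serve as a background, had 1 of 98 (1.02%, 0.0258 to 5.55; median 4311 UMIs), and 0 of 74 after thinning.

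**Figure D2:**
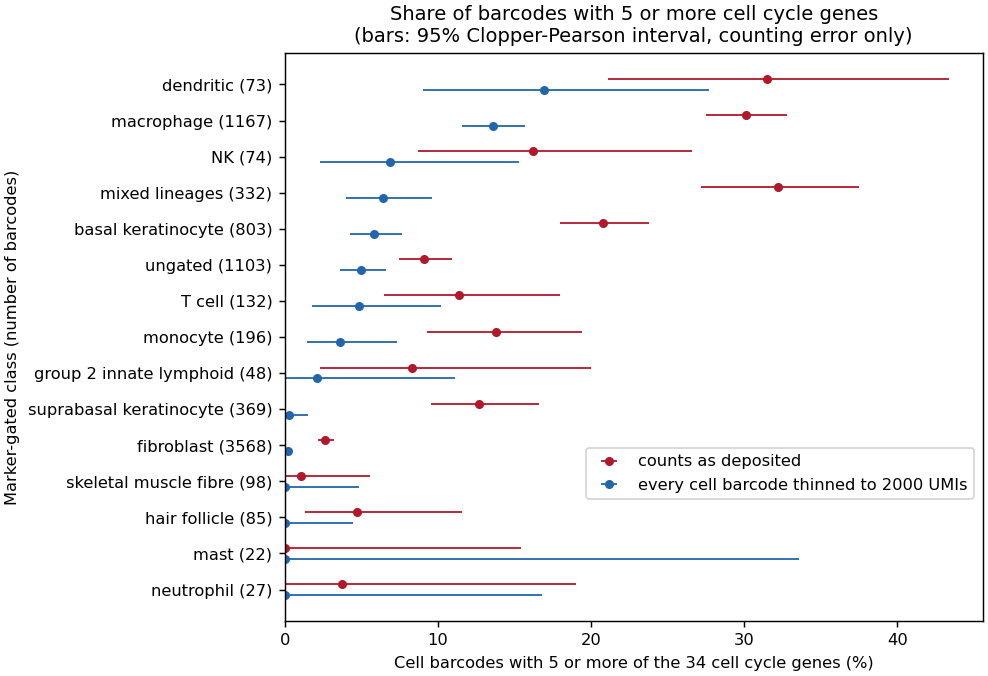
Percent of barcodes with 5 or more of the 34 genes in each class, before and after thinning to 2000 UMIs, with exact binomial 95% intervals as bars. Macrophage-like (13.6%) and dendritic-like (16.9%) shares stay highest after thinning, and the suprabasal keratinocyte-like share drops from 12.7% to 0.277%.

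There was no gap in the number of genes at the threshold of 5. In macrophage-like barcodes 89 had exactly 4 genes and 56 exactly 5, in basal keratinocyte-like barcodes 121 and 61, and in fibroblast-like barcodes 222 and 58. What differed was the far end: 99 macrophage-like and 38 basal keratinocyte-like barcodes had 20 or more of the genes, against 4 fibroblast-like ones. All 7 fibroblast-like barcodes with 9 or more mitotic genes were called doublets, and without called doublets the thinned share of that class was 1 of 3430 (0.0292%). Counting only barcodes with 3 or more mitotic genes gave 20.6% (18.3 to 23.0) of macrophage-like, 6.85% (5.2 to 8.82) of basal keratinocyte-like, 1.08% of suprabasal keratinocyte-like and 0.617% (0.387 to 0.932) of fibroblast-like barcodes. After thinning these shares were 10.8% (9.01 to 12.7), 5.41% (3.94 to 7.22), 0 of 361 and 0.20%, and the macrophage-like interval still lay above the basal keratinocyte-like one.

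Barcodes with 5 or more genes also had more captured UMIs, which selection by the number of detected genes favours. Their median UMIs were 14573 against 7750 for the rest in macrophage-like, 14184 against 10136 in basal keratinocyte-like and 18315 against 11272 in fibroblast-like barcodes. The share of mitochondrial UMIs was close in both, for example 2.22% against 2.44% in macrophage-like barcodes. How much of the depth gap comes from the cells and how much from detection was not tested.

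Within the macrophage-like class the share differed by subset. Barcodes with both Retnla and Ear2, genes of a dermal macrophage type, and fewer than 2 of Lyve1, Folr2, Cd209f and Timd4, genes of macrophages near vessels, had 5 or more cell cycle genes in 254 of 644 cases (39.4%, 35.6 to 43.3) and after thinning in 122 of 642 (19%, 16 to 22.3). Barcodes with 2 or more of those 4 genes, but not both Retnla and Ear2, had 31 of 231 (13.4%, 9.30 to 18.5), and 4 of 209 after thinning (1.91%, 0.524 to 4.83). The intervals of these subsets do not overlap, before or after thinning. The 71 barcodes that met both rules, with a median of 14794 UMIs, had 32 with 5 or more (45.1%, 33.2 to 57.3) and 8 of 69 after thinning (11.6%, 5.14 to 21.6). Counted with the second subset they would raise its share, and the thinned interval overlaps that of the first. The subsets differ in depth, with medians of 11583 and 6192 UMIs, and requiring both Retnla and Ear2 favours deep barcodes. Barcodes of neither subset had, after thinning, 17 of 194 (8.76%, 5.19 to 13.7). Among T cell-like barcodes, 0 of 59 with gamma-delta markers and 6 of 65 others (9.23%, 3.46 to 19) reached 5 genes after thinning, and those intervals overlap.

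The levels of the single genes were then compared class by class, as UMIs summed over a class in counts per 1000000 UMIs of that class (CPM), each against all other gated barcodes. Levels are compared between classes and not between genes, since the counts are not scaled to gene length. The comparison pool is made mostly of fibroblast-like barcodes, where every member is low, so a ratio above 1 says little about any other single class. A gene is called higher or lower past 2-fold, and percentages in brackets give the share of all 15035 genes with 50 or more UMIs that pass the same rule in that class.

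Macrophage-like barcodes had 30 of 34 members higher (14.6% of all genes), among them 9 of 10 S-phase and 19 of 22 mitotic genes. The median log2 ratio of the members was 2.00, against -0.30 over all genes. Mcm5, part of the helicase, was 51.9 CPM and 11.3-fold higher (9.81 to 13.1), and Rrm2, the regulated subunit of ribonucleotide reductase, was 27.4 CPM and 9.97-fold higher (8.25 to 12.1). Of the mitotic genes, the spindle checkpoint kinase Bub1 had the largest ratio, 9.13 (6.94 to 12.1), and the proliferation marker Mki67 was 4.77-fold higher (4.36 to 5.21). The members that missed 2-fold were Tyms at 1.93, Prc1 at 1.86, Cenpf at 1.67 and Cdc20 at 1.66.

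Basal keratinocyte-like barcodes had 24 members higher (13.8% of all genes), but the list was made up differently: 21 of 22 mitotic genes and, of the 10 S-phase genes, only Tyms at 2.17. Cenpf, a kinetochore protein of late cycle cells, was 88.5 CPM and 13.5-fold higher (12 to 15.2). Cdc20, the activator of the complex that ends mitosis, was 11.3-fold higher (9.65 to 13.3), and the mitotic cyclin Ccnb1 was 10-fold higher (8.34 to 12.1). These ratios rest on a small part of the class. Cenpf was detected in 47 of the 167 barcodes with 5 or more members and in 1 of the 636 others, with up to 72 UMIs in 1 barcode. Cdc20 was detected in 45 and 5 of them. Of the S-phase genes, by contrast, Mcm5 was at 0.688 (0.538 to 0.868), Mcm2 at 0.742, Mcm3 at 0.695 and Pcna at 0.876 of the level in the other gated barcodes. For Mcm5, 629 of the 828 UMIs of that pool came from macrophage-like barcodes. Mcm5 was 8.93 CPM in basal keratinocyte-like barcodes, against 2.61 in fibroblast-like and 51.9 in macrophage-like ones. Pcna was 68.4 CPM, against 43.9 and 187. These ratios below 1 therefore do not place the class below fibroblast-like barcodes. The mitotic gene short of 2-fold was Bub1, at 1.97.

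Dendritic-like barcodes had 29 members higher (12.5% of all genes), 21 of them mitotic and 6 of them S-phase genes, led by Kif11, a spindle motor, at 7.65-fold (5.62 to 10.2) and Mki67 at 7.44-fold (6.26 to 8.78). These ratios rest on few cells, as 10 of the 73 barcodes had 20 or more members. NK-like barcodes had 22 higher (16.9%), with 9 of 10 S-phase and 11 of 22 mitotic genes, led by Rrm2 at 7.81-fold (4.79 to 12.1) and Mcm6 at 6.09-fold (4.4 to 8.22). These too rest on few cells: 4 of the 74 barcodes had 8 or more members, and with each barcode weighing the same 11 members were higher, and 12 at 3-fold. T cell-like barcodes had 9 higher (20.5%), 5 of them S-phase genes, with Rrm1 at 4.20-fold (3.22 to 5.39) and the midbody motor Kif23 at 4.25-fold (2.83 to 6.15). That share of members, 9 of 34, lies near the background. Monocyte-like barcodes had only Cenpa and Kif23 higher (12.7%).

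In the remaining classes compared no member was 2-fold higher. Suprabasal keratinocyte-like barcodes had 0 members higher (11.0% of all genes) and 25 lower (36.2%), 21 of the 25 mitotic. Mki67 was 0.465 CPM there against 74.0 CPM in basal keratinocyte-like barcodes, and Top2a, which untangles DNA, 3.96 against 103 CPM. S-phase genes were less depleted, with Pcna at 64.9 CPM against 68.4 in basal keratinocyte-like barcodes. Prc1, a protein that bundles spindle microtubules, was the mitotic gene not lower in suprabasal keratinocyte-like barcodes, at 25.1 CPM. Hair follicle-like barcodes had 0 higher (19.9%), skeletal muscle fibre-like barcodes 0 higher (11.4%) and 32 lower (58.0%), and fibroblast-like barcodes 0 higher (19.3%) and all 34 lower (24.7%). Fibroblast-like Mki67 was 1.85 CPM and Top2a 2.28 CPM, while Pcna was still 43.9 CPM.

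**Figure D3:**
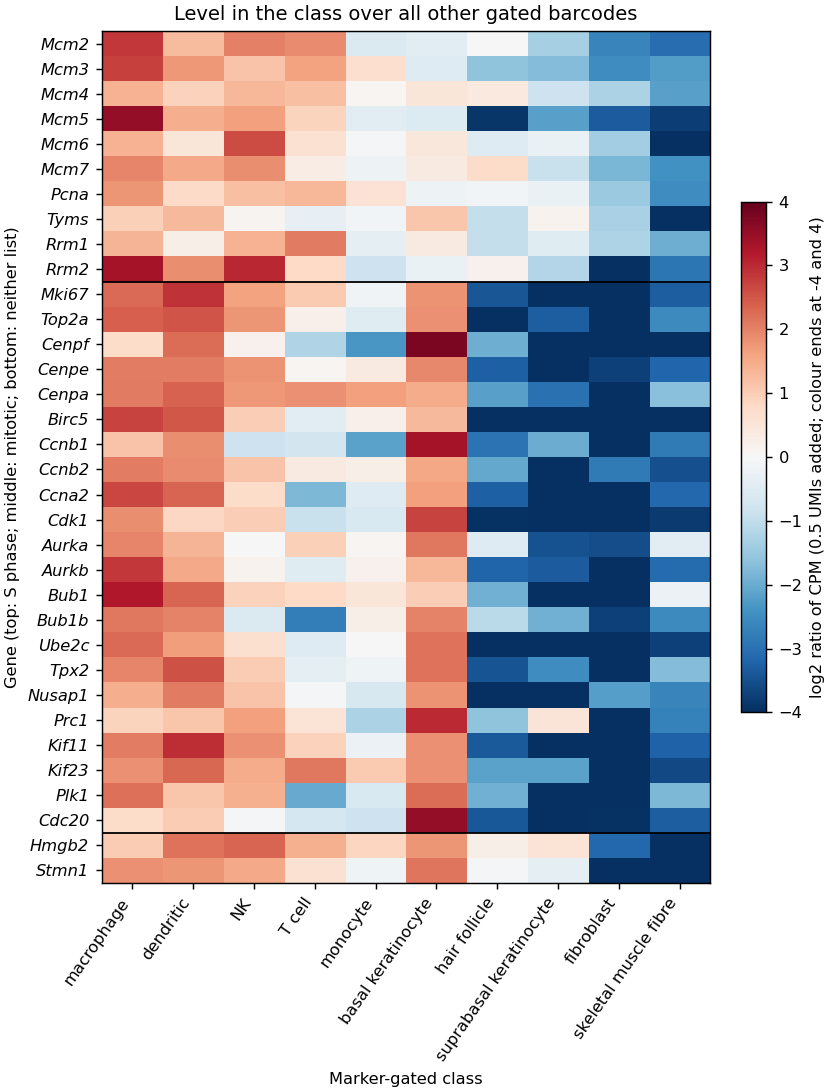
Log2 ratio of each member in each class against all other gated barcodes, with genes in rows ordered by phase, classes in columns, and colour running from -4 to 4. S-phase and mitotic rows are both high in the macrophage-like column, mitotic rows and only Tyms of the S-phase rows are 2-fold high in the basal keratinocyte-like column, and the fibroblast-like column is low in all 34 rows.

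Set directly against each other, basal keratinocyte-like and macrophage-like barcodes had like levels of many mitotic genes and unlike levels of S-phase genes. This comparison was chosen after the levels were seen. Mki67 was 74.0 against 80.3 CPM, a ratio of 0.922 (0.833 to 1.02), and Kif11 had a ratio of 1.00 (0.835 to 1.2). At 2-fold, 4 members were higher in basal keratinocyte-like barcodes (24.9% of 11767 genes) and 7 lower (21.8%), so the number of members called does not exceed the background. As a description only, the 4 higher were the mitotic genes Cenpf at 3.58 (3.13 to 4.11), Cdc20 at 3.38 (2.81 to 4.08), Prc1 at 2.64 and Ccnb1 at 2.61 (2.13 to 3.21). The 7 lower were 6 S-phase genes, Mcm5 at 0.172 (0.134 to 0.218), Mcm3 at 0.211, Rrm2 at 0.213, Mcm2 at 0.217, Pcna at 0.366 and Mcm7 at 0.475, and the mitotic gene Bub1 at 0.456 (0.324 to 0.632). The promoter letters did not follow these calls gene by gene. Mcm5, Mcm3 and Mcm7 carry E2F-type letters, but Rrm2, Mcm2 and Pcna do not, and Bub1 carries CHR letters, as Cenpf, Cdc20 and Prc1 do, while Ccnb1 does not.

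Summed over each phase list, S-phase genes gave 515 CPM (502 to 528) in macrophage-like and 217 CPM (207 to 227) in basal keratinocyte-like barcodes, and mitotic genes 827 CPM (811 to 844) and 954 CPM (933 to 974). Dendritic-like barcodes had 397 CPM of S-phase and 1344 CPM of mitotic genes. In NK-like barcodes the sums were 588 and 694 CPM, and in T cell-like barcodes 475 and 400.1 CPM. Suprabasal keratinocyte-like barcodes had 142 and 45.6 CPM, and fibroblast-like barcodes 105 and 34.9 CPM. The lists differ in length and in their genes, so the sums are set between classes and not between phases. Macrophage-like barcodes had the higher S-phase sum and basal keratinocyte-like barcodes the higher mitotic sum of that pair, with counting intervals apart in both. The mitotic order leans on few barcodes, which these intervals do not cover. Among the barcodes used for phases below, leaving out the 10 richest in member UMIs cut mitotic UMIs from 8161 to 4914 in basal keratinocyte-like ones. In macrophage-like ones the cut was from 9548 to 7931. The class sums were not rerun without these barcodes, so the mitotic order is a description only.

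Phases were next assigned within the barcodes that had 5 or more members, calling a phase present with 3 or more of its genes. Of 351 such macrophage-like barcodes, 87 had S-phase genes only, 182 both, 53 mitotic genes only and 29 neither. Of 167 basal keratinocyte-like barcodes, 84 had S-phase genes only, 34 both, 20 mitotic genes only and 29 neither. Mitotic genes were thus present in 67.0% (61.8 to 71.9) of the macrophage-like and 32.3% (25.3 to 40.0) of the basal keratinocyte-like barcodes. This order depended on depth: after thinning, it was 113 of 151 (74.8%) and 42 of 46 (91.3%).

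The barcodes differed in how evenly mitotic genes were spread. In basal keratinocyte-like barcodes with 5 or more members, 121 had 0 to 5 mitotic genes, 0 had 6 to 8 and 46 had 9 or more. Macrophage-like barcodes filled that gap, with 198, 36 and 117. Fibroblast-like barcodes left it empty too, with 87, 0 and 7. The bands were drawn along the rows found empty in the basal keratinocyte-like class, so the gap is a description only. The S-phase UMIs per mitotic UMI were 0.547 (5224 over 9548; 0.529 to 0.566) in macrophage-like and 0.141 (1153 over 8161; 0.133 to 0.15) in basal keratinocyte-like barcodes. T cell-like and NK-like barcodes stood at 0.843 (0.671 to 1.06) and 0.703 (0.574 to 0.860), monocyte-like ones at 0.488 (0.408 to 0.582), and suprabasal keratinocyte-like ones at 2.87 (2.17 to 3.84). The dendritic-like ratio of 0.265 rested on few barcodes: without the 10 that held the most member UMIs, an alternative chosen after seeing the data, it was 2.41, and without the same number it was 0.626 in macrophage-like and 0.216 in basal keratinocyte-like barcodes.

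**Figure D4:**
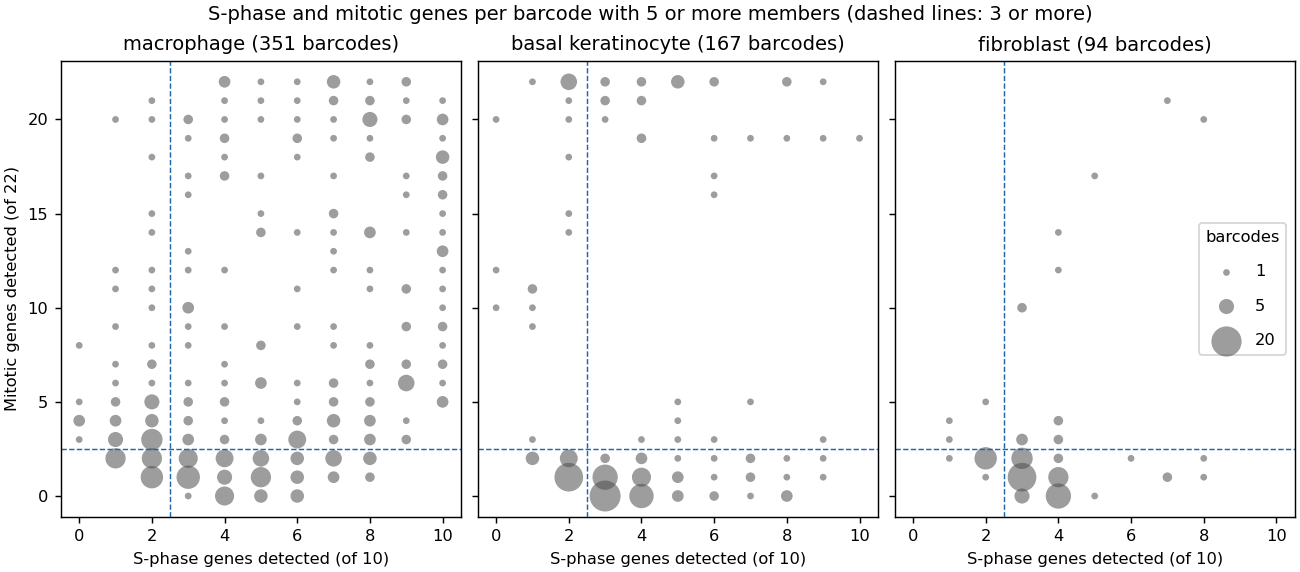
Number of S-phase genes (horizontal) and mitotic genes (vertical) detected per barcode among barcodes with 5 or more members, in 1 panel each for macrophage-like, basal keratinocyte-like and fibroblast-like barcodes, with point area showing the number of barcodes and dashed lines the limit of 3 genes. Basal keratinocyte-like and fibroblast-like barcodes leave the rows of 6 to 8 mitotic genes empty, with 46 and 7 above, whereas 36 macrophage-like barcodes lie in those rows.

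Genes outside the member list followed the phase calls. Among macrophage-like barcodes, 8 of 18 DNA replication genes with 20 or more UMIs were 2-fold higher in S-only than in mitotic-only barcodes (3.01% of all genes) and 0 were lower. Of 18 mitosis genes, 9 were 2-fold higher in mitotic-only barcodes (4.75%) and 0 lower. Lig1, the ligase that joins Okazaki fragments, was at 0.0653 and Dut, which removes dUTP, at 0.0603 of the S-only level in mitotic-only barcodes, while Spc24, a kinetochore protein, was 8.46-fold higher. Among basal keratinocyte-like barcodes, 9 of 16 replication genes were higher in S-only barcodes (10.4%), 2 were higher in mitotic-only ones (Tk1 at 3.67 and Uhrf1 at 2.77), and 34 of 35 mitosis genes were higher in mitotic-only ones (11.5%). Of 6 G1 genes 2 were 2-fold higher in S-only basal keratinocyte-like barcodes, Ccnd1 and Ccnd2, at 0.0552 and 0.179 of the S-only level in mitotic-only ones, while Ccnd3 was at 0.917 (0.392 to 1.91). Hmgb2, a chromatin protein, and Stmn1, which destabilises microtubules, were 11.6-fold and 8.04-fold higher in mitotic-only basal keratinocyte-like barcodes, and 2.59-fold and 1.85-fold in macrophage-like ones. Both are members and counted towards the 5 genes that selected these barcodes, so their ratios are a description only. Of the 61 basal keratinocyte-like barcodes with exactly 5 members, 56 had Hmgb2 and 47 had Stmn1. S-only, both and mitotic-only barcodes had median UMIs of 14260, 16479 and 10262 in the macrophage-like class and 13336, 18353 and 12989 in the basal keratinocyte-like class.

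The detection of each member is given next as a description, since the barcodes were split by these same genes and every member is bound to be commoner on the side with 5 or more. In macrophage-like barcodes with 5 or more members, Hmgb2 was detected in 313 of 351 (89.2%), Pcna in 309 (88.0%) and Stmn1 in 273 (77.8%), but Hmgb2 and Pcna were also seen in 39.6% and 47.7% of the barcodes with fewer. Mki67 was in 184 (52.4%, against 2.33% of the rest) and Ccna2 in 114 (32.5%, against 0 of 816). Plk1, a mitotic kinase, was detected in only 58 of the 351. Basal keratinocyte-like barcodes showed Hmgb2 in 160 of 167 (95.8%) and in 77.8% of the rest, and Rrm2 in 19 (11.4%). At least 1 of Mki67 and Top2a was present in 232 of 351 macrophage-like barcodes with 5 or more members (66.1%), 68 of 167 basal keratinocyte-like ones (40.7%) and 17 of 94 fibroblast-like ones (18.1%).

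Cell cycle genes outside the member list were compared between barcodes with 5 or more members and the rest of the same class. Of 99 listed genes, 94 had enough UMIs in macrophage-like barcodes, and 77 were 2-fold higher with 5 or more members (4.32% of all genes) and 0 lower (1.77%). The basal keratinocyte-like class had 56 of 78 higher (3.38%) and 0 lower (1.26%). By role, the higher genes in macrophage-like barcodes were 25 of 26 for DNA replication, 37 of 41 for mitosis, 9 of 15 for transcription control, 4 of 8 G1 cyclins and kinases and 2 of 4 kinase inhibitors. The corresponding numbers in basal keratinocyte-like barcodes were 13 of 19, 37 of 39, 3 of 10, 1 of 6 and 2 of 4. The contrast is tied to the choice of barcodes by genes of the same pathways, and the deeper barcodes are on the higher side.

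Among replication genes of macrophage-like barcodes, the thymidine kinase Tk1 was 52.9-fold higher (24.0 to 146) and Uhrf1, which maintains DNA methylation, 31.0-fold (17.5 to 60.6), and the histone mRNA binding protein Slbp, at 1.88, was the gene under 2-fold. In basal keratinocyte-like barcodes Uhrf1 was 18.6-fold and Tk1 11.3-fold higher, and Orc6 (1.33), Rfc3 (1.46) and Slbp (1.75) had the lowest ratios. For mitosis, Hmmr, a spindle protein, had 274 UMIs against 0 in basal keratinocyte-like barcodes, at least 237.0-fold higher. Zwint and Pttg1 had the lowest ratios in both classes, 1.41 and 0.878 in macrophage-like and 1.07 and 1.15 in basal keratinocyte-like barcodes.

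The G1 side was less tied to the members. The E cyclins Ccne2 and Ccne1 were 21.2-fold (8.73 to 66.9) and 10.2-fold higher in macrophage-like barcodes, but Ccnd1 (1.09), Ccnd3 (1.04) and Cdk6 (1.06), which act earlier in G1, were at the level of the rest. In basal keratinocyte-like barcodes Ccnd1 was at 1.00, Ccnd2 at 0.906 and Cdk6 at 0.887. Of the inhibitors of cyclin dependent kinases, Cdkn2c was 5.13-fold (3.73 to 7.18) and 6.46-fold (4.50 to 9.43) higher and Cdkn2d 2.11-fold and 4.60-fold, whereas the p53 target Cdkn1a was at 0.849 (0.789 to 0.914) and 0.965. Foxm1, the activator of mitotic genes, had 90 UMIs in macrophage-like barcodes with 5 or more members against 3 in the rest, a ratio of 36.9 (12.2 to 182), and 50 against 0 in basal keratinocyte-like ones, at least 43.3-fold higher. E2f7 and Mybl2 had 45 and 66 UMIs against 0 in macrophage-like barcodes, while Rb1 was at 0.869.

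**Figure D5:**
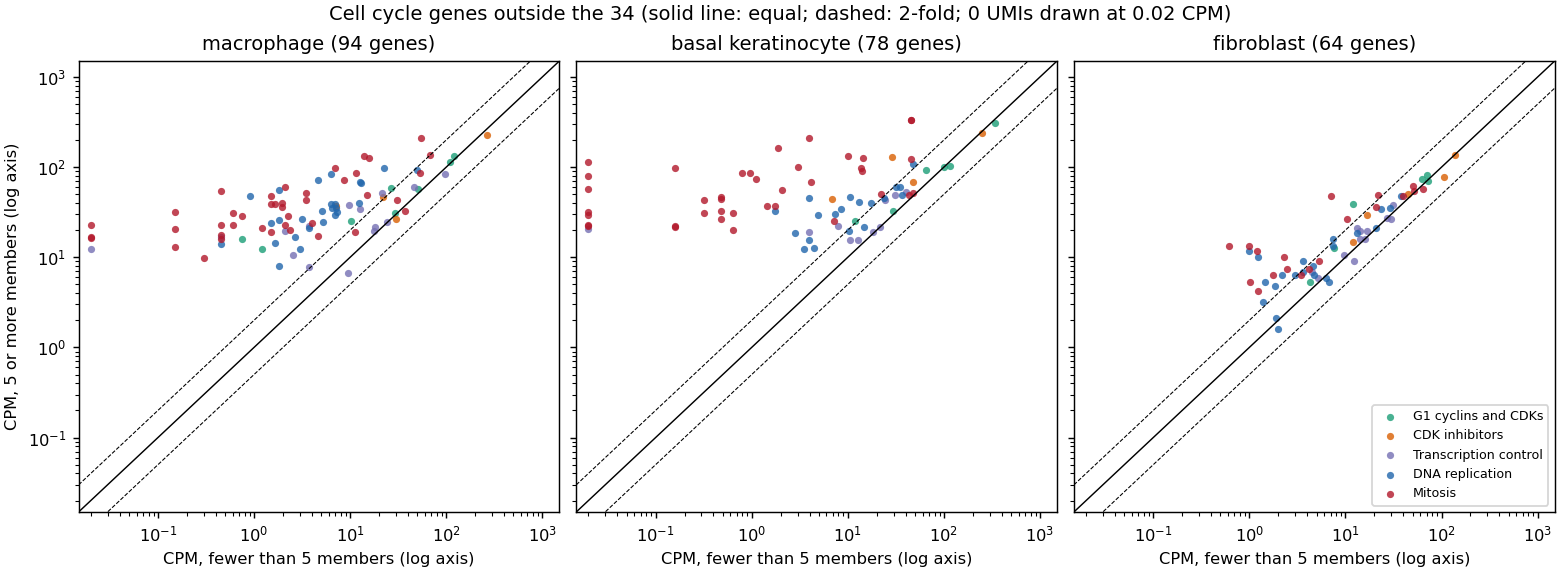
CPM of each listed cell cycle gene outside the members in barcodes with 5 or more members (vertical, log axis) against those with fewer (horizontal, log axis), coloured by role, for macrophage-like, basal keratinocyte-like and fibroblast-like barcodes, with genes at 0 UMIs drawn at 0.02 CPM. Of the points, 77 of 94, 56 of 78 and 21 of 64 lie above the upper dashed line of 2-fold.

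Cell type markers were compared in the same way. In macrophage-like barcodes with 5 or more members, the markers of the class were at 0.575 (C1qa) to 0.747 (Adgre1) of the level in the rest. Of other cell types, the summed dendritic markers were at 0.536 (0.480 to 0.597), basal keratinocyte markers at 1.56 (1.35 to 1.81; 75.9 against 48.6 CPM) and pericyte markers at 2.77 (1.15 to 7.36; 18 against 8 UMIs), and their part in the other differences was not tested. The genes with the lowest ratios among those with 100 or more UMIs were Cd209e at 0.197, Ccl12 at 0.204, Rasgrp3 at 0.225, S1pr1 at 0.254 and Cd209d at 0.264 (0.228 to 0.305). In basal keratinocyte-like barcodes the markers ranged from 0.795 (Itga6) to 1.16 (Krt14), and the summed markers of the lower hair follicle were at 0.465 (0.404 to 0.534). Grem1 at 0.0485 and Krt24 at 0.0827 had the lowest ratios there. Among genes with high ratios, Ska1 had 123 UMIs in 76 macrophage-like barcodes against 0 in the rest, and Aspm 219 UMIs in 36 basal keratinocyte-like barcodes against 1.

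The 94 fibroblast-like barcodes with 5 or more members had few mitotic genes. S-phase genes alone were present in 64, both phases in 14 and mitotic genes alone in 3. A doublet caller marked 17 of the 94 (18.1%), against 5 of 351 macrophage-like and 5 of 167 basal keratinocyte-like barcodes. The marked 17 held 549 of the 672 mitotic UMIs, and 14 of the 17 (82.4%) carried 2 or more markers of an immune list. All 7 barcodes with 9 or more mitotic genes were among the 17 and held 523 of the mitotic UMIs. Of these 7, only 4 (57.1%) carried 2 or more immune markers. Such markers were in 5 of the 77 unmarked barcodes (6.49%) and in 203 of 3474 with fewer members (5.84%). Spi1, a transcription factor of myeloid cells, was 16.3-fold higher with 5 or more members, and the chemokine receptor Ccr2 18.5-fold. Of the pathway genes, 21 of 64 were 2-fold higher (5.40% of all genes), and without the marked barcodes 8 of 58 were, with 2.65 S-phase UMIs per mitotic UMI in place of 0.680.

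In smaller classes the same contrast gave less. Pathway genes 2-fold higher were 1 of 32 in suprabasal keratinocyte-like barcodes (1.14% of all genes), 3 of 16 in monocyte-like ones (2.20%) and 4 of 11 in dendritic-like ones (3.72%), with 47, 27 and 23 barcodes of 5 or more members.

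Mki67 was used as a reference for genes with a like pattern, by Pearson's r of log2(CPM + 1) over the 13 classes. The closest were Top2a (r = 0.959), Kif11 (0.914), Esco2 (0.913), Shcbp1 (0.910) and Hmmr (0.891). The classes share 1 library and differ in size, so these are descriptions. Across all kept barcodes, 461 had Mki67, and Top2a was found in 300 of them (65.1%) against 2.84% of those without Mki67. Cdk1 was in 50.1% against 0.822%, while Hmgb2 was in 84.4% against 43.1% and Pcna in 74.4% against 39.8%.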

How the data were processed

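One pooled single-cell RNA library was analysed and the hashtag library was not used here. The deposited values are raw counts, the whole number of UMIs of each gene in each barcode. Cell Ranger and mm10 are named in the submitters' processing notes, with no version, and cell calling is not given in the sources used here. The matrix holds 83725065 UMIs, and kept barcodes had 507 to 58199.

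Python 3.11.15 with NumPy 2.4.6, SciPy 1.17.1, pandas 2.3.3 and matplotlib 3.10.9 was used. Classes needed 3 or more markers at 5 UMIs per 10000 (50 for abundant types, and 20 of keratin markers for the hair follicle class). Thinning to 2000 UMIs used a fixed seed and left out shallower barcodes. Shares carry Clopper-Pearson intervals, CPM exact Poisson intervals and ratios exact conditional intervals. Calls add 0.5 UMI to both sides, and a ratio against 0 UMIs is given as a lower bound against 3 counts over the group. Genes needed 50 UMIs in both sides together, or 20 for the phase contrast. Scrublet in Scanpy 1.11.5 (expected rate 6%) called 305 barcodes (3.75%), which stay in except where stated. The ratio and thinning steps were tested on simulated data.

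Members could all be named. Pathway genes were named as the 3 largest and smallest ratios per list and class with 20 or more UMIs, other genes as the 5 highest and lowest with 100 or more UMIs, and genes like Mki67 as the 5 highest correlations; of these, some are given in the text. The members and lists were chosen with earlier results of these data known. Alternatives were other filters, gates, thresholds, thinning depths and weights. Reads of overlapping or near-identical genes cannot be told apart from the counts.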

Additional observations from a re-analysis of the deposited data

How the results depend on the processing

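Of 235 alternatives over 26 results, 165 stayed within the counting interval or within 1.5 times a count, and 70 moved. The S-phase to mitotic ratio crossed 1 in fibroblast-like barcodes, from 0.680 to 2.65 without called doublets and 2.54 without the 10 barcodes richest in member UMIs, and in dendritic-like ones, from 0.265 to 2.41 without those 10. The numbers of members 2-fold higher in macrophage-like (30) and basal keratinocyte-like (24) barcodes did not move. For fibroblast-like barcodes the alternatives were run on the number lower (34), and the number higher (0) was not rerun.

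The macrophage-like share of 13.6% was 11.6% under a stricter gate, 21.3% at 3 and 8.53% at 8 or more genes, 11.5% without Hmgb2 and Stmn1, 7.94% and 23.6% thinned to 1000 and 5000 UMIs, 30.1% unthinned, and 10.8% for 3 or more mitotic genes, a rule chosen after seeing the data. The basal keratinocyte-like share of 5.79% was 10.7% at 3 or more genes, 10.1% thinned to 5000 UMIs and 20.8% unthinned. The fibroblast-like share of 0.20% was 0.0292% without called doublets (1 of 3430), 0.686% and 0.0572% at 3 and 8 or more genes, 0.0281% thinned to 1000 UMIs and 2.63% unthinned.

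S-phase UMIs per mitotic UMI (0.547) in macrophage-like barcodes were 0.581 under a stricter gate, 0.515 at 8 or more genes, 0.451 thinned, 0.759 without Mki67, Top2a and Ccna2, and 0.626 without the 10 barcodes richest in member UMIs, added after seeing the data. In basal keratinocyte-like barcodes (0.141) they were 0.0991 at 8 or more genes, 0.0739 thinned, 0.179 without the 3 genes and 0.216 without the 10 barcodes. The share with 3 or more mitotic genes (67.0%) in macrophage-like barcodes was 84.7% at 8 or more genes, 82.1% for 2 or more mitotic genes, 74.8% thinned and 58.1% without the 3 genes; in basal keratinocyte-like barcodes (32.3%) it was 69.7%, 45.5% and 91.3% for the first 3 of these. The order of the 2 classes in this share reversed on thinning, and not in the S-phase to mitotic ratio. Thinning left 19 of 31 pathway genes 2-fold higher in macrophage-like barcodes, 15 of 23 in basal keratinocyte-like and 26 of 36 in fibroblast-like. Without thinning the numbers were 77 of 94, 56 of 78 and 21 of 64. The share of all genes called after thinning was not counted. The causes of these shifts were not tested. For NK-like barcodes the 22 members were 11 with each barcode weighing the same and 12 at 3-fold.

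No paired analysis was possible because the series has 1 RNA library and no replicate numbers. The small number of barcodes limits every class under 100 barcodes, whose shares have intervals of several percentage points.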

Other observations

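Barcodes outside the classes also held cell cycle genes. Of 1103 barcodes that passed no gate, with a median of 4267 UMIs, 100 (9.07%, 7.44 to 10.9) had 5 or more members, and 44 of 890 (4.94%) did after thinning. Of these 100, 51 carried 2 or more macrophage markers, 32 fibroblast and 31 monocyte markers. Mitotic genes were present in 63 of them, and 27 had S-phase genes only. Of the 332 mixed barcodes, 107 (32.2%, 27.2 to 37.5) had 5 or more members, and the doublet caller marked 56 of these (52.3%).

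In macrophage-like barcodes with 5 or more members the antibody genes Igkc, Igha and Jchain had 3696, 2471 and 1059 UMIs, nearly all from 1 barcode each (3693, 2470 and 1059). Histone gene Hist1h1b had 536 UMIs spread over 92 barcodes against 3 in the rest. In fibroblast-like barcodes with 5 or more members, 92 of 93 Csf2 UMIs came from 1 barcode.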
